A study of Mus musculus with 20 samples.

Results

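Pregnancy was followed in visceral fat of mice on 2 diets, and the values given here compare the response to pregnancy between them. For each gene, the change from non pregnant to pregnant on the control diet was subtracted from the same change on the high fat (HF) diet, on the log2 scale of array intensity. This value is called the interaction of diet and pregnancy. It is positive where the change with pregnancy was the higher on the HF diet, and negative where it was the lower, whatever the levels themselves. All 20 arrays of the series entered it, and it was read for 19802 of 45101 probe sets, which represent 10603 genes.

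All mice were C57BL/6J females, and a group held 5 mice, each on its own array without pooling. The 4 groups were control non pregnant and control pregnant (Research diets 12328, 10% fat) and HF non pregnant and HF pregnant (Research diets 12331, 58% fat). The labels name no transgene and no drug. The labels give embryonic day E18.5 as the age of every mouse, the non pregnant ones included, so it states the stage of gestation for the pregnant mice only. The labels call the tissue visceral fat and the study's text calls the depot mesenteric, a site that also holds lymph nodes, vessels and a mesothelial cover. According to the methods, lymph nodes that could be seen were cut away. The array medians lay between 60.69 and 64.73 intensity units. Adipoq, the adipocyte hormone adiponectin, had mean log2 intensities from 14.26 to 14.49 in the 4 groups, and no placental marker passed the filter on low values. In pieces of whole tissue, fewer cells of a type and less RNA per cell cannot be told apart. Markers of the exocrine pancreas stood far above the other arrays in control non pregnant mouse 4 and control pregnant mouse 2, so counts are also given without both.

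Fat cells make fatty acids from acetyl-CoA (de novo lipogenesis) and store them as triglyceride, and the genes of this route are switched on by insulin and sugar through the factors encoded by Srebf1 and Mlxipl. Cholesterol synthesis is driven by the related factor encoded by Srebf2. Late pregnancy is a time when maternal fat turns from storing lipid to releasing it for the fetus, and a diet rich in fat lowers the need for new fatty acids. An interaction asks whether the tissue answers pregnancy in the same way under both diets.

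No probe set passed an adjusted p of 0.05 for the interaction in limma with the Benjamini-Hochberg method, that is 0.0% of 19802 probe sets in the higher and 0.0% in the lower direction. The smallest adjusted p in limma was 0.201, for Orm1, and the next was 0.933. At an unadjusted p under 0.05 stood 610 probe sets or 3.08%, fewer than the 5% that this threshold would pass if no gene differed. Of these, 268 (1.35%) were higher and 342 (1.73%) were lower. Counted by genes, 175 of 10603 (1.65%) were higher and 157 (1.48%) were lower. All values that follow are therefore estimates with their errors, and no gene is said to have risen or fallen. In an alternative fit the arrays were weighted by quality, and it leaned on few mice. HF non pregnant mouse 3 had a weight of 11.3 against 0.238 to 0.795 for the rest of its group, and control non pregnant mouse 4, an array with pancreatic signal, had 4.45 against 0.669 to 0.883.

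The precision of 5 mice a group differed between genes. The median standard error of the interaction was 0.197 and the median 95% interval reached 0.414 to each side (5th to 95th percentile 0.210 to 1.33). For 8278 genes (78.1%) the whole interval lay between -1 and 1 on the log2 scale. An interaction over 1 was estimated for 131 genes, 20 of them at an unadjusted p under 0.05. An interaction under -1 was estimated for 68 genes, 17 of them at an unadjusted p under 0.05.

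The genes with an unadjusted p under 0.05 mostly had responses of opposite sign on both diets, which a difference of both responses favours by its construction. Of the 175 higher genes, 166 had responses of opposite sign, with a median of 0.285 on the HF diet and -0.189 on the control diet. Of the 157 lower genes, 150 had opposite signs, with medians of -0.179 and 0.172. Among all genes, 41.6% had the same sign on both diets, so opposite signs were the more common case there too. Over all genes the responses were of like size, with a standard deviation across genes of 0.224 on the HF and 0.226 on the control diet. Their correlation across genes was -0.14, given as a description, since genes of 1 array are not independent and the arrays of both diets were normalised together.

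**Figure D1:**
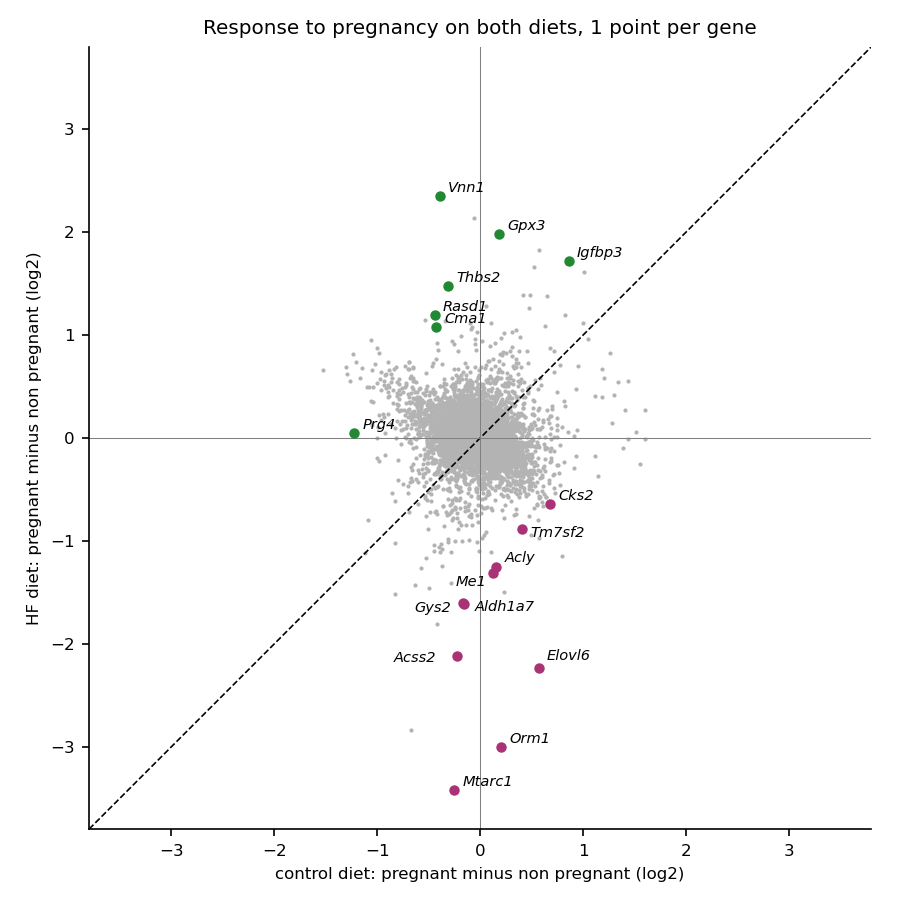
Response to pregnancy of each of 10603 genes (grey points), as pregnant minus non pregnant log2 intensity on the control diet (x axis) and on the HF diet (y axis), with the dashed line where both are equal. Named genes are green where the interaction is positive and purple where it is negative, and the lowest, Orm1 and Mtarc1, lie more than 3 units below the line.

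Several of the largest differences between diets belonged to genes that were nearly flat with pregnancy on the control diet and far lower or higher in HF pregnant mice. Orm1 encodes an acute phase plasma protein, alpha-1-acid glycoprotein, which fat cells also secrete. Mtarc1 encodes a molybdenum enzyme of the outer mitochondrial membrane. Both were lower in every HF pregnant mouse than in any of the other 15 mice. Gpx3, the secreted glutathione peroxidase, and Thbs2, a matrix protein that binds cells and proteases, were higher in every HF pregnant mouse than in any other.

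The log2 intensities of Orm1 were 7.96, 8.01, 7.17, 8.96 and 8.40 in the HF pregnant mice and 11.29, 11.54, 11.14, 11.61 and 9.96 in the HF non pregnant mice. They were 12.78, 11.24, 12.76, 11.80 and 12.27 in the control pregnant and 11.36, 11.39, 12.45, 12.24 and 12.36 in the control non pregnant mice. The HF pregnant mice did not overlap with any group, while the control groups lay over each other. Mean intensity thus went from 2370 to 297 units with pregnancy on the HF diet and from 4209 to 4972 units on the control diet. The log2 response was -3.01 on the HF and 0.21 on the control diet, and the interaction was -3.21 (SE 0.53, 95% interval -4.33 to -2.09). Orm1 is the gene nearest to a call in limma, with an adjusted p of 0.201 on all arrays. The adjusted p was 0.00916 when arrays were weighted by their quality, a fit that leaned on few mice. It was 0.0283 without HF non pregnant mouse 5, the lowest of its group. Across all alternatives of this gene the limma adjusted p ranged from 0.00916 to 0.877.

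Mtarc1 had log2 intensities of 5.29, 5.91, 4.70, 6.42 and 5.23 in the HF pregnant mice and 8.82, 9.67, 8.84, 9.76 and 7.59 in the HF non pregnant mice. The control pregnant mice were at 11.01, 9.45, 10.92, 9.30 and 9.74 and the control non pregnant mice at 9.29, 9.62, 10.57, 10.79 and 11.41. All HF pregnant mice lay below the lowest other mouse, and all 5 were under the filter level of 100 intensity units. The interaction was -3.17 (SE 0.68, 95% interval -4.60 to -1.74), and a second probe set gave -1.26. Because the HF pregnant values lie under the filter level, the size depends on the floor, and it was -2.04 with all values raised to at least 100 units. On the linear scale the unadjusted p in limma was 0.611. The limma adjusted p was 0.933.

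Gpx3 clears hydrogen peroxide and lipid peroxides in plasma. Its log2 intensities were 12.30, 12.78, 12.39, 11.89 and 12.52 in the HF pregnant mice and 10.51, 10.31, 10.92, 10.61 and 9.62 in the HF non pregnant mice, with no overlap. In the control pregnant mice they were 11.27, 10.81, 10.72, 10.42 and 10.79 and in the control non pregnant mice 11.22, 10.71, 11.22, 9.80 and 10.15, which overlapped. The interaction was 1.80 (SE 0.39, 95% interval 0.99 to 2.62). It was 0.99 with array weights. Of 25 listed antioxidant enzymes 22 were measured, Gpx3 included, of which 14 were positive and 8 negative, and the median was 0.12 beside 0.00231 over all genes. Gsta3, a glutathione transferase, stood on the other side with -0.97 (SE 0.46).

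Thbs2 had log2 intensities of 9.63, 10.71, 9.70, 10.04 and 10.88 in the HF pregnant mice, 8.48, 9.30, 9.24, 8.53 and 8.02 in the HF non pregnant mice, 9.26, 7.44, 8.81, 8.24 and 9.07 in the control pregnant mice and 9.40, 9.50, 8.52, 8.51 and 8.44 in the control non pregnant mice. Only the HF pregnant mice stood apart. The interaction was 1.79 (SE 0.51, 95% interval 0.72 to 2.85), against 0.66 and 0.74 at 2 other probe sets of the gene, and 0.76 with array weights. Among 28 measured matrix genes 17 were positive and 11 negative, with a median of 0.08. Timp2 and Mmp2, an inhibitor and a protease of the matrix, had interactions of 0.63 (SE 0.22) and 0.63 (SE 0.24). Col15a1, a basement membrane collagen, was the reverse at -0.88 (SE 0.39), and the fibrillar collagens Col1a1 and Col3a1 were at -0.18 and -0.09. The median of this list turned to -0.46 with array weights, so it has no settled direction.

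**Figure D2:**
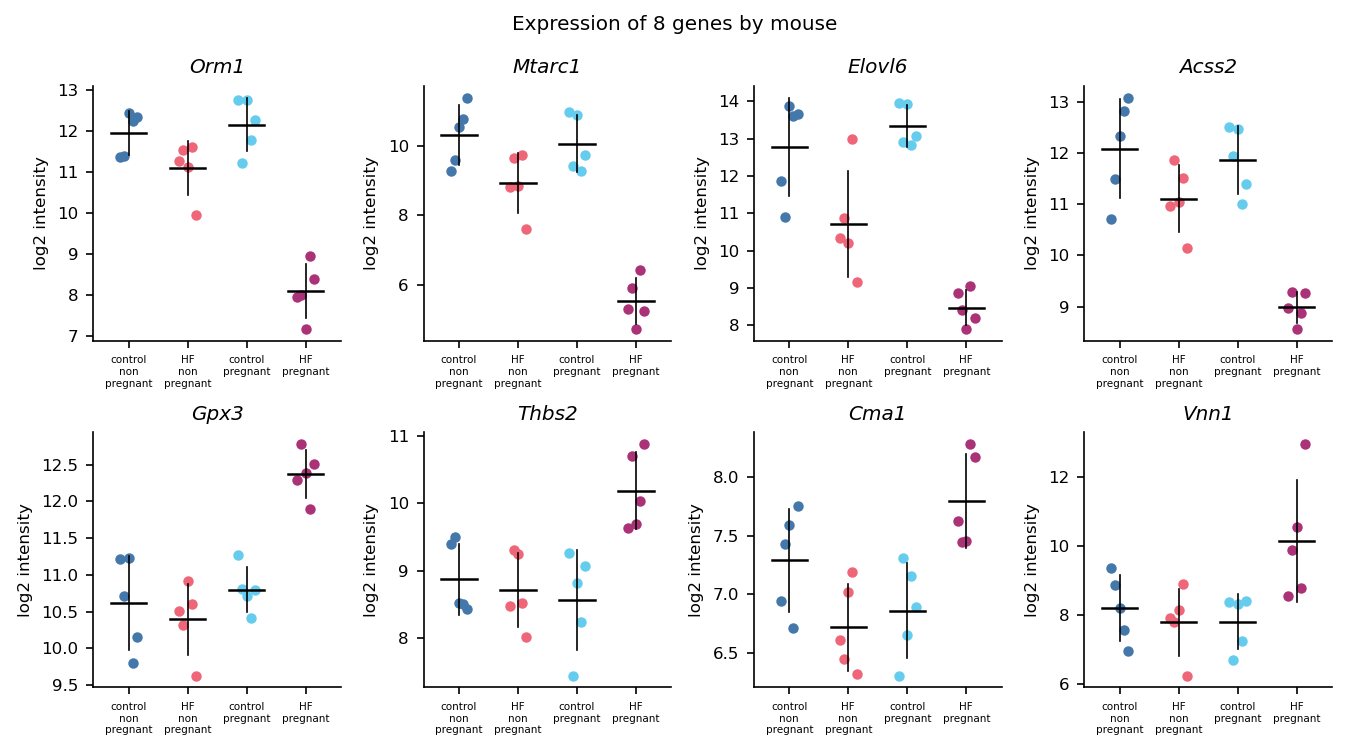
Log2 intensity (y axis) of 8 genes in each mouse (points) by group (x axis), with the group mean (line) and SD (bar), 5 mice a group. In Orm1, Mtarc1, Elovl6 and Acss2 all HF pregnant mice lie below the other 15 mice, and in Gpx3 and Thbs2 they lie above them.

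This kind of separation was rare. In 24 genes (0.226%) all HF pregnant mice lay below the other 15 mice, and in 14 genes (0.132%) all lay above. The genes below, named here because of these values, included the lipogenic enzymes Acss2, Elovl6, Acly and Scd2, the sterol enzymes Fdps, Dhcr7 and Sqle, the retinal reductase Rdh11 and the fatty acid binding protein Fabp5. The genes above included Gpx3, Thbs2, Igfbp3, Tgm2 (tissue transglutaminase), Mmp14 (a membrane protease), Reln (a secreted matrix protein), Tgfbr3 and the transcription factor Maf. Standing apart is not the same as an interaction, as Rdh11 (-0.43, SE 0.57) and Sqle (-0.22, SE 0.28) show. The group means of both were lower on the HF diet and also lower with pregnancy. With these errors it cannot be told whether the differences simply add up.

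Genes of de novo lipogenesis were mostly negative, that is lower with pregnancy on the HF diet than on the control diet. Of 26 listed genes 23 were measured, 19 were negative and 4 positive, and the median interaction was -0.35 beside 0.00231 over all genes. The members with an unadjusted p under 0.05 were Acss2, Elovl6, Fasn, Me1, Acly and Tkt, all lower, where 1.48% of all genes were. These enzymes make acetyl-CoA (Acss2 from acetate, Acly from citrate), build the fatty acid (Fasn), lengthen it (Elovl6) and supply NADPH (Me1) or its sugar phosphates (Tkt). The median response of the list was -0.33 on the HF and -0.03 on the control diet. All lists, this one included, were chosen with earlier results of these data known. The study had also singled out Fasn and Me1 on these samples. Shares of list members at an unadjusted p under 0.05 are therefore descriptions and not independent evidence, here and in the lists below.

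Elovl6 lengthens fatty acids beyond palmitate. Its log2 intensities were 8.86, 8.40, 7.89, 9.04 and 8.19 in the HF pregnant mice and 10.34, 10.87, 10.20, 12.99 and 9.17 in the HF non pregnant mice. They were 13.96, 12.91, 13.93, 12.82 and 13.08 in the control pregnant mice and 11.86, 10.89, 13.87, 13.60 and 13.65 in the control non pregnant mice. All HF pregnant mice lay below every other mouse, but HF non pregnant mouse 5 came close to them and mouse 4 lay among the controls. The interaction was -2.81 (SE 0.87, 95% interval -4.63 to -0.98), with -2.79 and -1.20 at 2 other probe sets.

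Acss2 had log2 intensities of 8.97, 9.29, 8.56, 8.87 and 9.26 in the HF pregnant mice, 10.97, 11.86, 11.05, 11.52 and 10.14 in the HF non pregnant mice, 12.51, 11.93, 12.46, 11.01 and 11.39 in the control pregnant mice and 10.72, 11.49, 12.33, 12.81 and 13.08 in the control non pregnant mice. The HF pregnant mice were the lowest and also the closest to each other. The interaction was -1.89 (SE 0.58, 95% interval -3.11 to -0.67), and -1.97 at a second probe set. Mean intensity went from 2381 to 517 units with pregnancy on the HF diet and from 5114 to 4023 units on the control diet.

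Fasn, fatty acid synthase, had log2 intensities of 12.08, 12.42, 11.84, 11.92 and 12.14 in the HF pregnant mice and 12.92, 13.52, 13.15, 14.03 and 12.24 in the HF non pregnant mice. The control pregnant mice were at 14.32, 13.85, 14.15, 13.54 and 13.81 and the control non pregnant mice at 13.63, 13.49, 14.12, 14.30 and 14.17. Pregnancy left the control mice in the same range, and 1 HF non pregnant mouse, mouse 5, lay within the range of the HF pregnant mice. The interaction was -1.09 (SE 0.36, 95% interval -1.85 to -0.33).

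Acly and Me1 followed the same order of groups. Acly was at 11.26, 11.39, 10.95, 11.42 and 11.56 in HF pregnant and 12.08, 12.99, 12.56, 13.38 and 11.81 in HF non pregnant mice, and the interaction was -1.41 (SE 0.55, 95% interval -2.56 to -0.25). Me1, malic enzyme, was at 10.58, 10.89, 10.45, 10.88 and 11.26 in HF pregnant and 12, 12.64, 11.91, 13.15 and 10.92 in HF non pregnant mice, and the interaction was -1.44 (SE 0.56, 95% interval -2.61 to -0.27). In Me1, mouse 5 of the HF non pregnant group lay among the HF pregnant mice. Second probe sets gave -1.81 and -1.40 for Acly and -1.57 for Me1. For Acss2, Elovl6, Fasn, Acly and Me1, the unadjusted p in limma was under 0.05 in 33 of 34 alternative fits each. The highest limma p was 0.619, 0.252, 0.0808, 0.401 and 0.322 in this order. The genes were picked for a small p on all arrays, and the alternative fits reuse most of these arrays. Such counts therefore show how far a value depends on the processing and are not independent support.

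Not every gene of the route was lower. The regulators Srebf1 and Mlxipl had positive interactions of 0.45 (SE 0.42) and 0.66 (SE 0.66), and Acacb, the mitochondrial acetyl-CoA carboxylase, was at 0.52 (SE 0.76). Acaca, the cytosolic carboxylase, was at -0.73 (SE 0.55). Scd1, the main desaturase, was at -0.13 (SE 0.08), with group means from 24701 to 28703 units. Its second, less bright probe set was at -0.59. That probe set went from 5144 to 2969 units with pregnancy on the HF diet and from 8630 to 8136 units on the control diet. Whether the brighter probe set was near the upper limit of the array was not tested. The desaturases Fads1 and Fads2 were near 0 at 0.07 and -0.07. The adipocyte markers lay nearer to 0 than this list: 8 of 10 were measured, 5 were positive and 3 negative, with a median of 0.17, and -0.03 with array weights. Their summed intensity lay between 60404 and 81463 units in HF pregnant mice and between 47397 and 83648 in HF non pregnant mice. In the control diet groups it lay between 59669 and 91779 units with pregnancy and between 72789 and 80183 without. The lowest of these sums was that of HF non pregnant mouse 5, and without it the lipogenic median was -0.57 and the adipocyte median -0.07. The lipogenic median was -0.23 without HF non pregnant mouse 4 and -0.21 with array weights.

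Genes of cholesterol synthesis were almost uniformly negative. Of 24 listed genes 19 were measured, 18 were negative and 1 positive, and the median was -0.50. Only Tm7sf2, a sterol reductase, and Nsdhl, a sterol dehydrogenase of the same stretch of the route, had an unadjusted p under 0.05, that is 2 of 19 where 1.48% of all genes were lower. Insig1, the sensor that holds back sterol synthesis and is itself a target of its factors, was at -0.72 (SE 0.46). The positive member was Hmgcs1, the synthase at the head of the route, at 0.19 (SE 0.33). The median of the list was -0.62 with pregnancy on the HF diet and -0.15 on the control diet.

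Tm7sf2 had log2 intensities of 6.96, 6.87, 6.62, 6.74 and 6.35 in the HF pregnant mice, 7.81, 7.69, 7.54, 8.39 and 6.5 in the HF non pregnant mice, 9.59, 7.91, 9.60, 8.50 and 8.67 in the control pregnant mice and 7.69, 7.89, 9.26, 8.57 and 8.81 in the control non pregnant mice. The HF pregnant mice overlapped only with mouse 5 of the HF non pregnant group. The interaction was -1.29 (SE 0.52, 95% interval -2.38 to -0.21). Nsdhl was at 8.18, 8.41, 8.16, 8.28 and 8.59 in HF pregnant and 9.29, 9.79, 9.36, 9.66 and 8.56 in HF non pregnant mice, with the same mouse in the overlap, and the interaction was -0.98 (SE 0.44, 95% interval -1.91 to -0.05). The cholesterol median shrank from -0.50 to -0.13 with array weights, to -0.24 without control non pregnant mouse 1, and to -0.32 and -0.30 without control pregnant mouse 1 or mouse 3.

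As scores by mouse, both lists were lowest in HF pregnant mice. The mean log2 deviation of the cholesterol genes from their average over all mice was -0.66, -0.68, -0.78, -0.71 and -0.49 in HF pregnant and -0.12, 0.25, -0.15, 0.17 and -0.54 in HF non pregnant mice. The control pregnant mice were at 0.83, -0.11, 0.86, -0.02 and -0.04 and the control non pregnant mice at -0.19, 0.05, 0.78, 0.57 and 0.97. HF pregnant mice lay close together, with 1 HF non pregnant mouse among them, whereas both control groups split into high and low mice. For the lipogenic genes the scores were -0.87, -0.72, -1.11, -1.01 and -0.39 in HF pregnant and -0.33, 0.04, -0.31, 0.45 and -1.08 in HF non pregnant mice. They were 1.06, 0.23, 1.0, 0.05 and 0.25 in control pregnant and -0.01, 0.04, 0.95, 0.80 and 0.96 in control non pregnant mice. Pooled over the 4 groups, the SD between mice of a group was 0.39 for the cholesterol score and 0.47 for the lipogenic score.

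**Figure D3:**
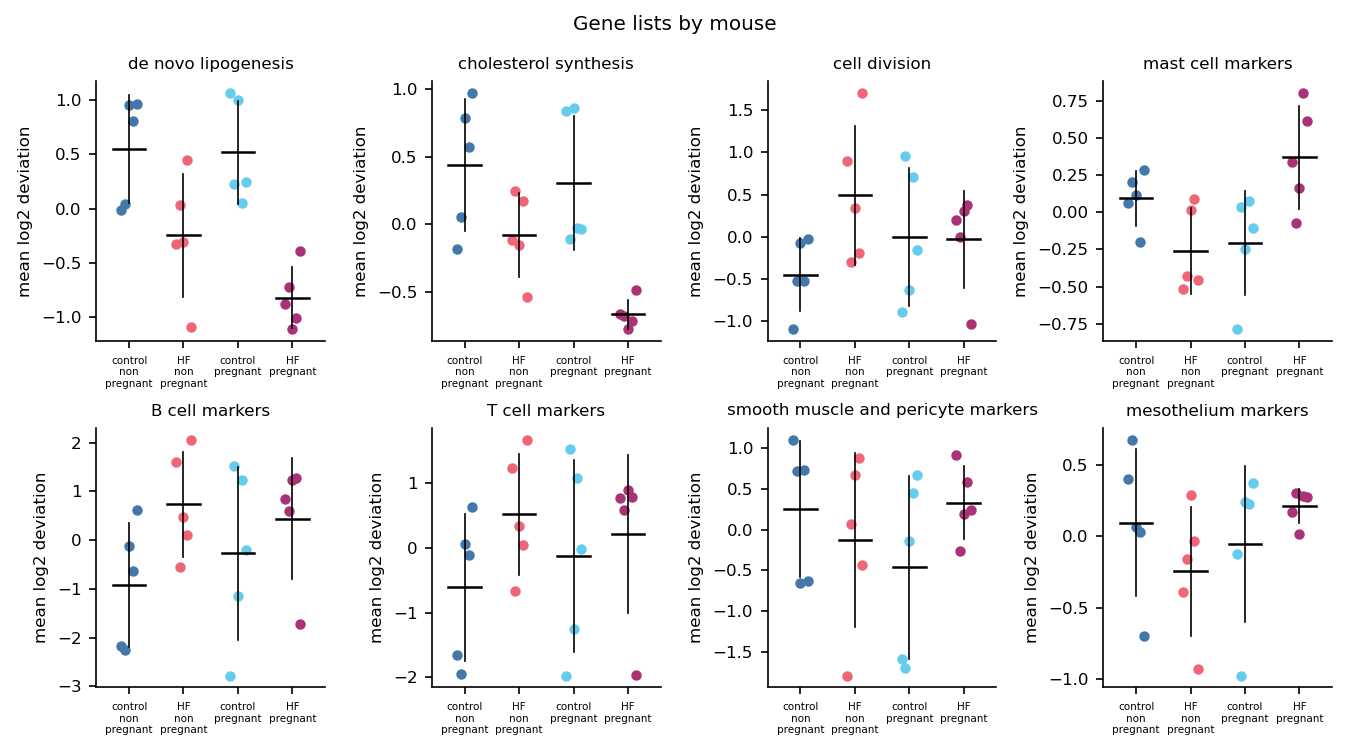
Mean log2 deviation of the members of 8 gene lists from their average over all mice (y axis) in each mouse (points) by group (x axis), with the group mean (line) and SD (bar), 5 mice a group. Cholesterol scores of HF pregnant mice lie between -0.78 and -0.49, while the lymphocyte scores spread far more widely within each group.

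The promoters of these genes were read to show what they share in sequence. RefSeq windows on GRCm38.p6, from 250 bases before to 50 after the start of transcription, were found for 16 of the 19 cholesterol genes, 20 of the 23 lipogenic genes and 8565 of the 10603 genes tested. Searched on both strands were the CCAAT box (CCAAT), the sterol regulatory element (TCACNCCAC) and the E-box (CACGTG), none of which contains another. The CCAAT box was present in 16 of 16 cholesterol and 14 of 20 lipogenic genes, against 42.1% of all genes tested. It was also present in 14 of 15 cell division genes. The sterol element as spelled here was present in 1 cholesterol gene (Hmgcs1) and 1 lipogenic gene (Mlxipl), against 1.38% of all genes tested, and in Mtarc1. The E-box was present in 4 and 3 genes, against 11.9%. A match of letters is a description of the window and no evidence of binding.

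Shown are the windows of Acss2 and Fasn, at either end of the lipogenic route, and of Tm7sf2 and Nsdhl, the sterol genes with the smallest p. Each is written 5′ to 3′ on the strand of its gene, and capitals mark the CCAAT box on either strand, which stands once in Acss2 and Tm7sf2, 3 times in Fasn and 4 times in Nsdhl. The windows are chr2:155517793-155518092 (+) for Acss2, chr11:120824498-120824797 (-) for Fasn, chr19:6067801-6068100 (-) for Tm7sf2 and chrX:72918271-72918570 (+) for Nsdhl.
Acss2: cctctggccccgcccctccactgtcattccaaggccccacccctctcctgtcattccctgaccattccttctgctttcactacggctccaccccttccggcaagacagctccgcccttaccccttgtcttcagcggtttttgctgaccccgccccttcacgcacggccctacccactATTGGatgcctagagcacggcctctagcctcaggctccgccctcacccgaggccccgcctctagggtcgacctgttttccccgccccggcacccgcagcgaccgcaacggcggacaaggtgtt
Fasn: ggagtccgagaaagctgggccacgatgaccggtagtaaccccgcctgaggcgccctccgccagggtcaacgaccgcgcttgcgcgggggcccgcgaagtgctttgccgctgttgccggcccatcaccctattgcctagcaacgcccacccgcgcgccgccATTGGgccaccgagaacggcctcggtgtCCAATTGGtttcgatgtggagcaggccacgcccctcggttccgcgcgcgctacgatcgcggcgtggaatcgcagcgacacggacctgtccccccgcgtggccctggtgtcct
Tm7sf2: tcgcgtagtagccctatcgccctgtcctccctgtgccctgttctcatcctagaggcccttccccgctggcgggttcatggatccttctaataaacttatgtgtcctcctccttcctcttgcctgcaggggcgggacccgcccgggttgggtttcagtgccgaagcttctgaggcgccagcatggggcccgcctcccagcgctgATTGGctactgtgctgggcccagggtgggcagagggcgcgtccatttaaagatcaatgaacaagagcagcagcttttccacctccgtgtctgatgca
Nsdhl: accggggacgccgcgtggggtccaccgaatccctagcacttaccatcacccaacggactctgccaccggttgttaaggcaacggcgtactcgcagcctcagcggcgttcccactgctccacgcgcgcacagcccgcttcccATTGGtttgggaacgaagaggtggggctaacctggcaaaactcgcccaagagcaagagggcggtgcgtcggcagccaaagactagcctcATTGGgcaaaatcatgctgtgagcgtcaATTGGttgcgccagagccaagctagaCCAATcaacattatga

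Genes that store or burn lipid did not follow those that make it. Of 24 measured genes of triglyceride synthesis and storage, 15 were positive and 9 negative with a median of 0.10, and none had an unadjusted p under 0.05. Dgat2, which makes the last bond of triglyceride, was at -0.65 (SE 0.41), and Plin5, a lipid droplet protein, at 0.94 (SE 0.69). Of 21 genes of lipolysis and fatty acid oxidation, 16 were positive and 5 negative with a median of 0.16, and again none had an unadjusted p under 0.05. Ppara, a factor of fatty acid oxidation, was at 0.79 (SE 0.44) and Acadvl, an enzyme of it, at 0.38 (SE 0.31). Both medians passed through 0 when HF non pregnant mouse 5 was left out, at -0.01 and -0.04.

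The glycogen enzyme Gys2 and the aldehyde enzyme Aldh1a7 stood among the most negative genes. Gys2, a glycogen synthase best known from liver, had log2 intensities of 5.81, 5.98, 5.28, 5.84 and 5.36 in HF pregnant and 7.37, 8.15, 7.14, 7.80 and 5.85 in HF non pregnant mice. Its interaction was -1.45 (SE 0.63, 95% interval -2.76 to -0.14). All HF pregnant mice and HF non pregnant mouse 5 lay under the filter level of 100 units, and the value was -0.62 with all values raised to at least 100 units and -0.93 with array weights. Of 23 genes of glucose entry and glycogen, 13 were negative and 10 positive, with a median of -0.17. Aldh1a7, an aldehyde dehydrogenase of the retinal family, was at 9.84, 10.36, 9.46, 10.19 and 9.98 in HF pregnant mice and 11.91, 12.36, 11.54, 11.46 and 10.58 in HF non pregnant mice, and the HF pregnant mice lay below all others, with an interaction of -1.43 (SE 0.47, 95% interval -2.41 to -0.45). The wider retinol list did not go with it: 12 of 16 were positive, with a median of 0.10, which was -0.06 with array weights.

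Acute phase proteins leaned negative, but the list holds Orm1 itself. Of 22 listed genes 10 were measured, Orm1 included, of which 7 were negative and 3 positive. The median was -0.39, and -0.16 without HF non pregnant mouse 2. It was -0.25 without control non pregnant mouse 1 and -0.15 with values raised to at least 100 units. The paralogs Orm2 and Orm3 were at -0.75 (SE 0.75) and -0.67 (SE 0.40). Their probe sets may share transcripts with Orm1, so they may not be separate from it. Hp, haptoglobin, was at -0.14 (SE 0.80), and Saa3, a serum amyloid of fat and macrophages, at 0.59 (SE 0.70). Cd14, the coreceptor for bacterial lipopolysaccharide, was at 0.55 (SE 0.25).

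Genes with positive interactions included several secreted and signalling proteins. Vnn1, a pantetheinase that releases pantothenate, had log2 intensities of 8.53, 9.88, 10.56, 8.78 and 12.96 in the HF pregnant mice, 7.91, 7.78, 8.14, 8.89 and 6.23 in the HF non pregnant mice, 8.37, 6.68, 8.32, 7.25 and 8.41 in the control pregnant mice and 9.37, 8.88, 8.21, 7.57 and 6.96 in the control non pregnant mice. The HF pregnant mice overlapped with both non pregnant groups, and mouse 5 stood over 2 units above the others. The interaction was 2.74 (SE 1.0, 95% interval 0.65 to 4.84), with 2.70 at a second probe set, and 2.04 without that mouse. Rasd1, a small GTPase induced by glucocorticoid, was at 9.37, 9.86, 9.69, 9.32 and 10.80 in HF pregnant and 8.66, 8.82, 8.69, 9.40 and 7.5 in HF non pregnant mice, and the interaction was 1.64 (SE 0.55, 95% interval 0.48 to 2.8). Penk, the precursor of enkephalins, was at 10.00, 10.09, 9.84, 9.89 and 10.76 in HF pregnant and 8.83, 9.24, 9.28, 9.78 and 7.83 in HF non pregnant mice, and the interaction was 1.22 (SE 0.44, 95% interval 0.30 to 2.13).

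The same HF pregnant mouse 5 was the highest of its group in several of these genes. Pmepa1, a membrane protein induced by TGF-beta, had an interaction of 1.34 (SE 0.62, 95% interval 0.04 to 2.64), and 1.0 without this mouse. Vsig4, a complement receptor of resident macrophages, was at 1.31 and 0.93 without it. Prg4, the lubricating protein lubricin, was at 1.28 and 0.94 without it. Vsig4 and Prg4 had their highest mean intensity in control non pregnant mice. On the control diet Vsig4 went from 210 to 116 units with pregnancy and Prg4 from 762 to 320. On the HF diet they went from 91.7 to 146 and from 415 to 455 units. With array weights Vnn1 was at 1.32, Penk at 0.58 and Bpgm, described next, at 0.71. In that fit Vsig4 and Prg4 were at 0.02 and -0.10, so neither has a direction that holds across fits.

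Bpgm, which makes bisphosphoglycerate in red cells, was at 1.34 (SE 0.59) and went with a red cell marker. Bpgm log2 intensities were 8.51, 9.06, 8.84, 8.02 and 10.10 in HF pregnant and 7.97, 8.29, 10.55, 7.83 and 8.15 in control non pregnant mice. Alas2, the heme synthesis enzyme of red cells and the 1 erythroid marker of 8 that was measured, was highest in the same 2 mice, at 11.08 in control non pregnant mouse 3 and 10.82 in HF pregnant mouse 5. The interaction of Alas2 was 2.20 (SE 1.07), and that of Bpgm was 0.84 without control non pregnant mouse 3. The part of red cell RNA in the result was not tested.

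The remaining genes among the 12 smallest p values had small interactions in tight groups. Gart, a purine synthesis enzyme, was at 8.86, 9.17, 8.84, 8.79 and 9.25 in HF pregnant and 8.31, 8.33, 8.20, 8.31 and 8.31 in HF non pregnant mice, with an interaction of 0.74 (SE 0.19, 95% interval 0.34 to 1.13). Its other kept probe sets gave -0.06 and 0.04, so the probe sets of this gene disagree. Ube2h (0.38, SE 0.11), a ubiquitin conjugating enzyme, and Rnmt (-0.42, SE 0.12), which methylates the mRNA cap, also had other kept probe sets near 0, from -0.03 to 0.15 and at -0.01. Stambpl1, a deubiquitinase, was at -0.59 (SE 0.17), and -0.77 at its second probe set and -0.37 with array weights. Etfbkmt, a lysine methyltransferase, was at 0.86 (SE 0.25), and 0.70 at its second probe set. Nedd8, a ubiquitin-like modifier, was at -0.31 (SE 0.09), and Gm1673 at 0.31 (SE 0.09), which was 0.13 with values raised to at least 100 units.

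Insulin-like growth factor genes leaned positive. Of 22 measured genes of IGF and insulin signalling, 19 were positive and 3 negative, with a median of 0.31. Igfbp3, a carrier of IGF in blood and tissue, had log2 intensities of 9.41, 9.88, 9.71, 9.52 and 10.44 in HF pregnant, 8.57, 7.99, 7.81, 7.48 and 8.52 in HF non pregnant, 8.95, 8.66, 8.99, 9.28 and 8.69 in control pregnant and 8.04, 7.66, 9.13, 7.59 and 7.85 in control non pregnant mice. It was higher with pregnancy on both diets, by 1.72 on the HF and 0.86 on the control diet, and the HF pregnant mice lay above all others. The interaction was 0.86 (SE 0.39, 95% interval 0.04 to 1.67), and 0.79 at a second probe set. Igf1 was at 0.38 (SE 0.40, 95% interval -0.47 to 1.22), with 0.33 to 0.72 at 3 other probe sets, and it was 0.16 without HF non pregnant mouse 5 or control pregnant mouse 2 and 0.19 without HF pregnant mouse 5. Irs1, which relays the insulin signal, was at 0.63 (SE 0.34). The median of the list was -0.01 with array weights, 0.19 without HF non pregnant mouse 5 and 0.15 without control pregnant mouse 2.

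The other genes that the study singled out for this tissue had intervals that took in 0, apart from Fasn, Me1, Orm1 and Igfbp3. Esr1, the estrogen receptor alpha, was at 0.65 (SE 0.48, 95% interval -0.36 to 1.65), and at 0.36 without control pregnant mouse 2, an array with pancreatic signal. Hsd17b12, a fatty acid elongation enzyme also tied to estradiol, was at -0.02 (SE 0.42, 95% interval -0.91 to 0.86). Rbp4, the retinol carrier, was at -0.80 (SE 0.41, 95% interval -1.65 to 0.06), Ccl2, a chemokine for monocytes, at -0.43 (SE 0.35, 95% interval -1.16 to 0.30), and Tnf did not pass the filter. All 8 measured genes on the list of lower genes were negative (median -0.72), and 3 of 4 on the list of higher genes positive (median 0.51, and 0.26 without the same mouse), but the study chose them on these samples, so their signs are not independent evidence. Among 13 adipokines, Apoe was at 0.74 (SE 0.30), Agt, angiotensinogen, at 1.26 (SE 0.71), and Lep, leptin, at -0.75 (SE 0.85). Among 16 inflammatory mediators, Ccl8, a chemokine of resident macrophages, was the 1 with an unadjusted p under 0.05 (1.48% of all genes in this direction), at -1.22 (SE 0.47).

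Mast cell genes were positive. Of 13 listed markers 5 were measured, all 5 were positive with a median of 1.06, and Cma1 (chymase), Mcpt4 (a chymase of connective tissue mast cells) and Cpa3 (a carboxypeptidase of their granules) had an unadjusted p under 0.05, where 1.65% of all genes did in this direction. Cma1 had log2 intensities of 7.62, 7.45, 7.46, 8.28 and 8.17 in the HF pregnant mice and 6.61, 6.45, 7.02, 7.19 and 6.33 in the HF non pregnant mice, without overlap. The control pregnant mice were at 6.31, 7.31, 6.65, 7.15 and 6.89 and the control non pregnant mice at 6.95, 7.43, 7.59, 6.72 and 7.76. The control non pregnant mice reached into the range of the HF pregnant mice. The interaction was 1.5 (SE 0.34, 95% interval 0.78 to 2.22).

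The 2 other granule genes showed the same order with overlap. Mcpt4 was at 6.74, 6.60, 6.77, 7.74 and 7.61 in HF pregnant and 6.07, 5.96, 6.51, 6.61 and 6.08 in HF non pregnant mice, with an interaction of 1.06 (SE 0.36). In Mcpt4 all HF non pregnant mice and HF pregnant mouse 2 lay under the filter level of 100 units, so its size depends on the floor. Cpa3 was at 7.90, 7.46, 7.84, 8.91 and 8.58 and 6.72, 6.97, 7.54, 7.73 and 7.03 in these groups, with an interaction of 1.21 (SE 0.43). Kit and Gata2, which other cells express too, were at 0.64 (SE 0.53) and 0.23 (SE 0.15). The summed intensity of the 5 markers lay between 965 and 1792 units in HF pregnant mice and between 765 and 1219 in HF non pregnant mice, and on the control diet between 658 and 1216 units with pregnancy and 1080 and 1373 without. The levels were low, since Tpsb2, Fcer1a, Hdc and 5 further markers did not pass the filter. With array weights the median was 0.43 and the interaction of Cma1 was 0.84. With values raised to at least 100 units the median was 0.64, and without the arrays that held pancreatic signal it was 1.32.

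**Figure D4:**
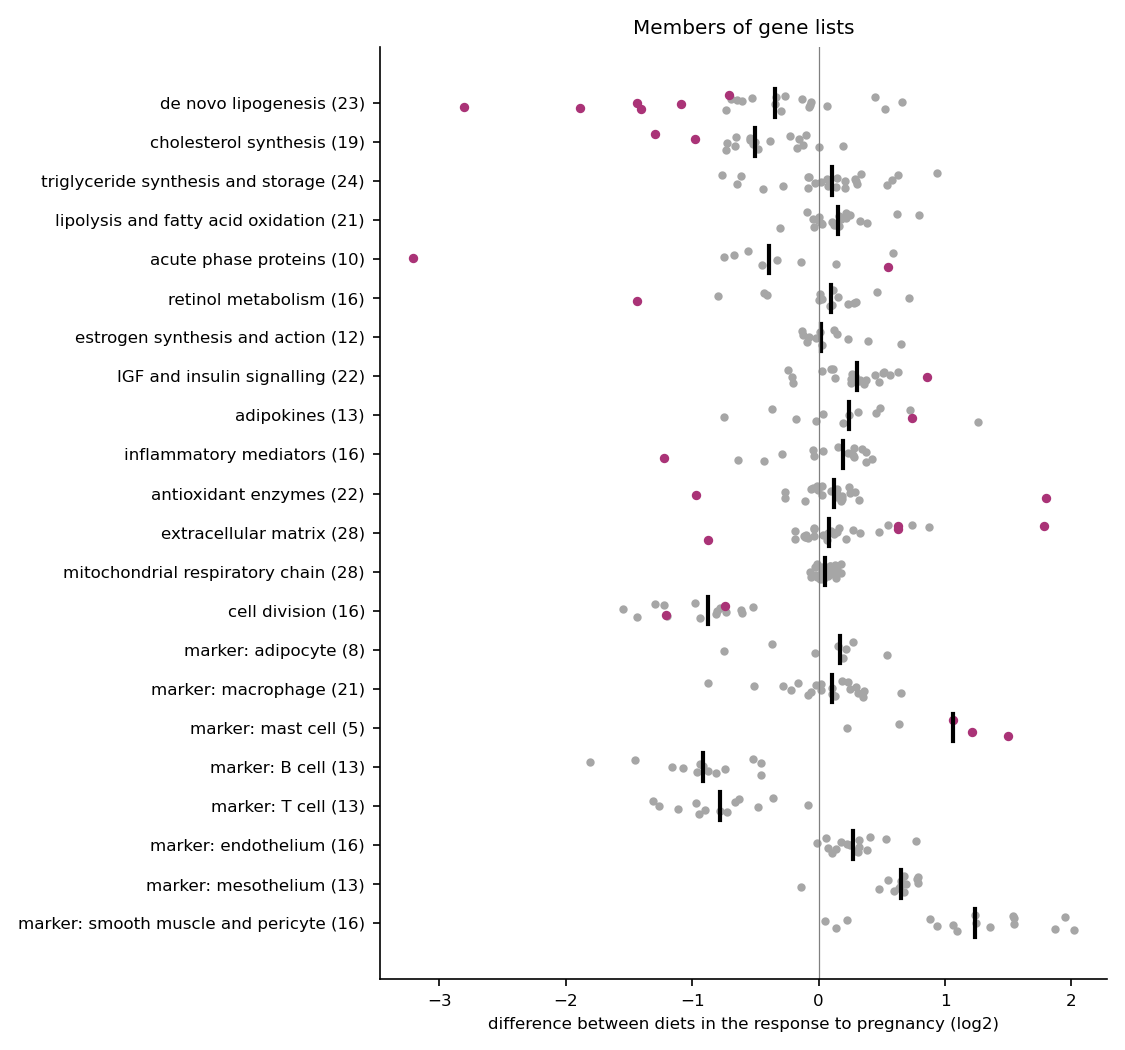
Interaction of diet and pregnancy on the log2 scale (x axis) for each measured member (points) of 22 gene lists (y axis, number of measured members in brackets), with the list median (black bar) and members with an unadjusted p under 0.05 in purple. All members of the cell division, B cell and T cell lists lie below 0 and all smooth muscle and mast cell markers above it.

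Cell division genes were negative together with lymphocyte markers. Of 30 listed division genes 16 were measured, and all 16 were negative, with a median of -0.88 and medians of -0.50 on the HF and 0.48 on the control diet. Cdk1, the kinase that drives entry into mitosis, was at -1.21 (SE 0.48), Prc1, of the dividing spindle, at -0.74 (SE 0.31), and Cks2, a partner of such kinases outside the list, at -1.32 (SE 0.53). The log2 intensities of Cdk1 were 6.94, 6.78, 7.02, 7.14 and 5.85 in HF pregnant, 7.69, 6.5, 7.25, 6.69 and 8.45 in HF non pregnant, 6.67, 7.67, 6.54, 7.45 and 6.90 in control pregnant and 5.94, 6.69, 6.62, 6.08 and 6.71 in control non pregnant mice, and all 4 groups overlapped.

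B and T cell markers were negative as well. All 13 measured B cell markers of 16 and all 13 measured T cell markers of 17 were negative, with medians of -0.92 and -0.78, and none had an unadjusted p under 0.05. The summed intensity of the B cell markers lay between 10729 and 45912 units in HF pregnant mice, 12096 and 47449 in HF non pregnant, 2980 and 39788 in control pregnant, and 2926 and 22512 in control non pregnant mice. That of the T cell markers lay between 1074 and 6882, 2284 and 12519, 1153 and 11114, and 1209 and 5694 units in the same order. The B cell score of single mice was 0.85, 0.60, 1.23, 1.27 and -1.73 in the HF pregnant group, and mouse 5 was far below the others. Pooled over the 4 groups, the SD between mice of a group was 1.37 for the B cell score and 1.21 for the T cell score. For the cell division score it was 0.69. With each array left out the B cell median ranged from -1.46 to -0.33 and the T cell median from -1.49 to -0.29, the lowest without control pregnant mouse 1 and the highest without HF pregnant mouse 5. With a score of both lymphocyte lists as a covariate the division median was -0.54 and the lipogenic median -0.50. The B and T cell medians come to about 0 in that fit by its construction, since the score is made of these markers.

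Smooth muscle, mesothelial and endothelial markers leaned the other way. All 16 smooth muscle and pericyte markers were positive with a median of 1.24, and none had an unadjusted p under 0.05. The pooled SD between mice of a group was 0.90 for the score of this list. Actg2 and Synm, a contractile actin and a filament protein of smooth muscle, were at 2.02 (SE 1.23, 95% interval -0.57 to 4.61) and 1.95 (SE 1.07, 95% interval -0.30 to 4.20). Actg2 log2 intensities were 13.30, 11.52, 12.38, 12.70 and 11.97 in HF pregnant, 8.53, 11.62, 12.71, 12.91 and 11.31 in HF non pregnant, 8.67, 8.97, 11.53, 12.59 and 12.73 in control pregnant and 13.20, 12.60, 10.84, 12.52 and 10.65 in control non pregnant mice, and the lowest mice stood outside the HF pregnant group. Of 13 mesothelial markers 12 were positive with a median of 0.65, and of 16 endothelial markers 15 were positive with a median of 0.27. Of 21 macrophage markers 13 were positive and 8 negative, with a median of 0.10. The smooth muscle median was 0.78 without HF non pregnant mouse 1, and the mesothelial 0.39 without control pregnant mouse 2. With array weights the smooth muscle median was 0.11, the mesothelial -0.11 and the macrophage -0.46.

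Several other lists had medians near 0. Members of the mitochondrial respiratory chain (28 measured) lay between -0.07 and 0.18, with 22 positive and a median of 0.05. Of 12 genes of estrogen synthesis and action, 7 were positive with a median of 0.02. Of 19 genes of endoplasmic reticulum stress, 10 were positive with a median of 0.02, and of 17 interferon genes 7, with a median of -0.02. Further from 0 was the median of the circadian clock genes, at 0.19, with 10 of 15 positive and 0 at an unadjusted p under 0.05. It stayed positive in all 30 alternatives, from 0.02 to 0.39.

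**Figure D5:**
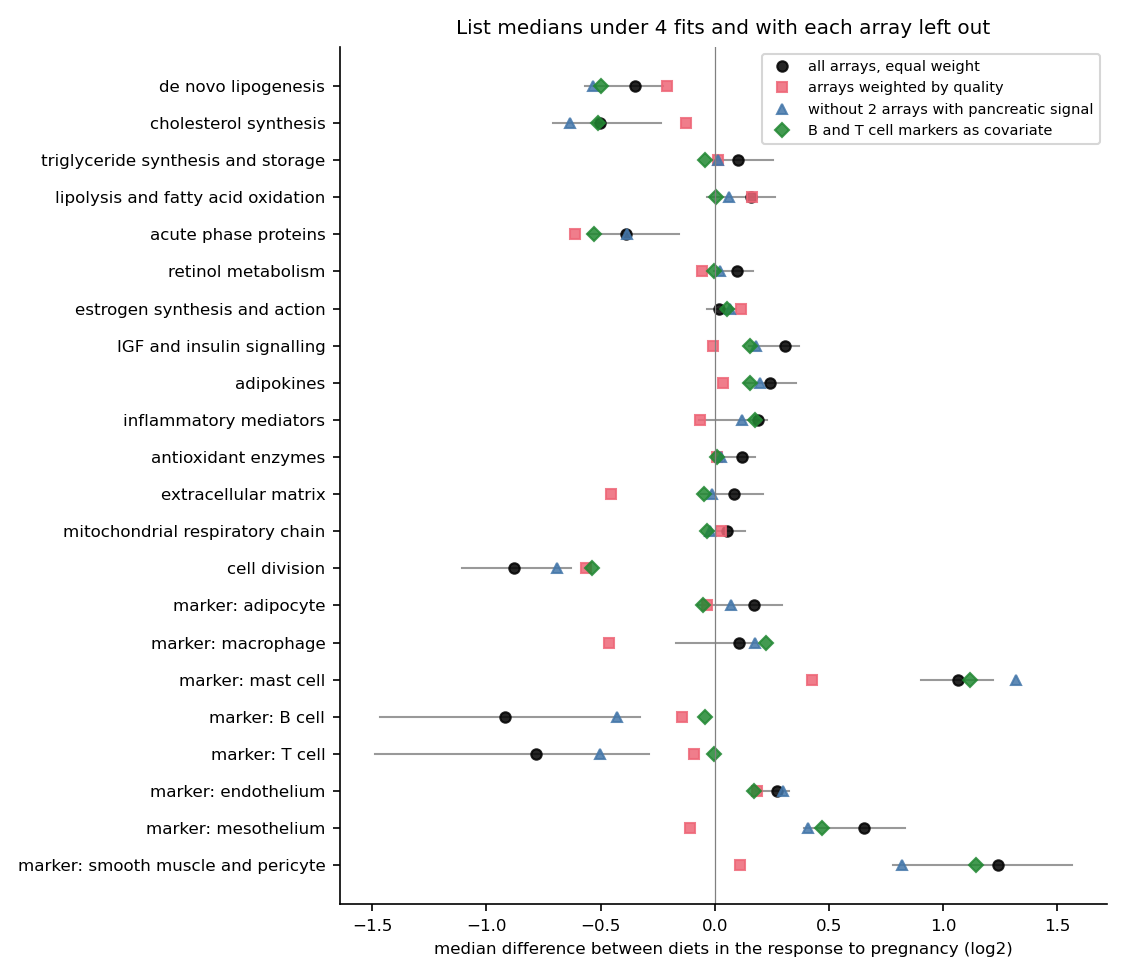
Median interaction on the log2 scale (x axis) of 22 gene lists (y axis) on all arrays (black), with arrays weighted by quality (red), without the 2 arrays with pancreatic signal (blue) and with the lymphocyte score as a covariate (green), and the range when each array is left out (grey lines). The lipogenic, cholesterol, acute phase and cell division medians stay below 0 in all of these fits. The B and T cell medians do too, but lie at about 0 with the covariate by its construction. The mast cell, endothelial, smooth muscle and adipokine medians stay above 0. With array weights the smooth muscle median is 0.11 and the adipokine median 0.04.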

How the data were processed

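RNA of visceral fat from 20 mice was hybridised to Affymetrix mouse arrays, 1 mouse an array. The authors normalised the scans by RMA with the affy package in R 2.8.0, and the deposited intensity values are on the linear scale, 1 for each of 45101 probe sets. RMA adjusts all arrays to a common distribution, so values are relative. The labels name Trizol for RNA extraction and the methods Qiagen columns, and the sources used here give no scan date or batch. The number of arrays limits the precision.

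The log2 values were analysed here in R 4.3.3 with limma 3.58.1 on a model of 4 group means, and the interaction was read as a contrast with moderated errors. The 64 control probe sets were left out, and probe sets were kept where at least 5 arrays exceeded 100 (19802, or 43.91%). Of these 17322 carry 1 gene symbol in the platform annotation, 531 several and 1949 none. A gene was represented by the brightest of its probe sets with a single symbol. P values were adjusted by the Benjamini-Hochberg method across the 19802 probe sets tested, and 0.05 was the threshold. They set the interaction against the spread between mice within groups, pooled over the 4 groups and moderated across probe sets. The fit was tested on simulated data.

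The members and lists were chosen with earlier results of these data known. Named are the 12 genes with the smallest p, the 10 most positive and 10 most negative at an unadjusted p under 0.05 with a mean of at least 100 in 2 groups, the genes singled out by the study, up to 4 members of each list and a few others chosen after their values were seen. Lists are described by counts and medians, with no test. Same-numbered mice did not deviate together, so numbers were not taken as pairs. Alternatives left out each array in turn, weighted arrays, used the number as a block, changed the filter, floor, scale or probe set rule, left out arrays with pancreatic signal or added a lymphocyte covariate. Promoter windows come from RefSeq on GRCm38.p6; no window was read for Orm1.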

Additional observations from a re-analysis of the deposited data

Results flagged for a closer look

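A value was singled out where 1 mouse of 5 stood so far from its group that the gap to its neighbour exceeded 0.71 of the group's range (Dixon's criterion). Chance alone does this for about 1 group in 20, or 5%, and 16 of 296 groups of values (5.41%) met it.

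HF non pregnant mouse 5 was low in Orm1 (log2 intensity 9.96), Igf1 (10.48) and Scd1 (14.56). HF non pregnant mouse 3 was low in Gart (8.2). Control non pregnant mouse 1 was low in Aldh1a7 (11.06). Control non pregnant mouse 3 was high in Bpgm (10.55), in the erythroid marker Alas2 (3.248 above the mean of all mice on the log2 scale) and in the score of Igf1, Igfbp3, Esr1 and Hsd17b12 (0.435). HF pregnant mouse 5 was high in Penk (10.76).

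HF pregnant mouse 5 was also low in the mean log2 deviation of B cell (-1.727), T cell (-1.955), lymph node stroma (-1.179) and cell division genes (-1.033) and in Glycam1 (-2.596), the 1 measured gene of the mammary list, which also stands in the lymph node list. Its pancreatic score was 0.133, above its group, and that of control non pregnant mouse 4 was 4.471. The interaction of the T cell list was -0.29 and that of the B cell list -0.33 as a median without HF pregnant mouse 5.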

How the results depend on the processing

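The count of called probe sets was 0 in 33 of 35 alternatives. With array weights it was 2, Orm1 (-3.30, adjusted p 0.00916 in limma) and Sec61a1 (-0.69, adjusted p 0.0199), and with each array left out it ranged from 0 to 1, the 1 being Orm1 without HF non pregnant mouse 5 (adjusted p 0.0283). Over all its alternatives the adjusted p of Orm1 in limma ranged from 0.00916 to 0.877. Probe sets at an unadjusted p under 0.05 numbered 610 on all arrays, 357 to 1093 with an array left out, 1746 with array weights, 396 without the arrays with pancreatic signal, 737 with the lymphocyte covariate and 690 without moderation.

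With the replicate number as a replicate block, 0 probe sets were called in limma and 428 had an unadjusted p under 0.05. The numbers are no pairs: over 30 pairs of same-numbered arrays the median correlation of deviations was -0.16 (-0.75 to 0.67), and 2 of 20 arrays correlated best with their own number.

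Of 37 genes, 33 kept the sign of their interaction in all alternatives. With array weights Prg4 was at -0.0953, Igf1 at -0.0180, Hsd17b12 at 0.0596 and Rdh11 at 0.35, and on the linear scale Rdh11 was at 58.1 intensity units. Hsd17b12 ranged from -0.23 to 0.14 with each array left out. Of 34 lists with 3 or more genes, 14 kept the sign of their median in all 30 alternatives run for lists. The causes were not tested.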
